A study of Mus musculus with 2 samples.

Results

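The collagen genes of the mouse were followed here through the cell types of the heart at embryonic day E11.5, with and without deletion of the transcription factor gene Hand2 in the endocardium. Members were taken by symbol, as every gene named Col, a number, a and a second number, and 44 of the 22401 features in the deposited matrices matched. By the structure of the protein they fell into 11 fibrillar, 6 basement-membrane network, 6 beaded-filament, 9 FACIT (fibril-associated), 2 multiplexin, 4 transmembrane, 3 short-chain network and 3 anchoring or other collagens. Whole hearts were dissociated and profiled by droplet single-cell RNA sequencing in 2 libraries, 1 per genotype. The control library came from Hand2fx/+ R26RmTmG/wt embryos, which carry 1 floxed Hand2 allele and no Cre. The H2CKO library came from Nfatc1Cre/wt Hand2fx/fx R26RmTmG/wt embryos, in which Cre is driven from Nfatc1, a gene transcribed in the endocardium, and both Hand2 alleles are floxed. Both carry 1 copy of the mTmG reporter, which switches from membrane Tomato to membrane GFP where Cre has acted. The labels do not give the number of embryos per library.

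Collagens are secreted or membrane proteins built of chains that wind into a triple helix. Fibrillar collagens (types I, II, III, V, XI) assemble into the fibres that give tissue its tensile strength, and FACIT collagens such as types IX, XII and XIV sit on the surface of those fibres. Type IV collagen forms the sheet-like network of basement membranes, type VI forms beaded filaments around cells, and type XVIII carries heparan sulphate and releases endostatin. In the heart of this stage, endocardial cells line the lumen, cushion mesenchyme derived from endocardium and other sources builds the forerunners of the valves, and the epicardium covers the surface.

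After filtering, 8793 control and 11534 H2CKO cells remained, with a median of 16223 and 13430 unique molecular identifiers (UMIs, counted transcript molecules) per cell. Clustering was run without the collagen genes and the genes of their pathway, so that neither chose the cells. The 4 classes described most were endothelial-like (373 control and 751 H2CKO cells), mesenchymal-like (1605 and 1074), epicardial-like (829 and 323) and cardiomyocyte-like (2064 and 2549). The clusters that make up a class differed in share. In control the endothelial-like class was mostly a cluster led by Stmn2, Wnt4 and Klf2 (256 cells against 117 in a cluster led by Emcn, Plvap and Kdr), and in H2CKO mostly the Emcn-led cluster (485 against 266). The mesenchymal-like class held a cluster led by Twist1, Msx1 and Hapln1 (918 and 650 cells) and one led by Meox1 and Tgfbi (687 and 424). The epicardial-like class held a cluster led by Upk3b (688 and 217) and one led by Tcf21 and Hic1 (141 and 106), so that the Tcf21-led cells were a larger share of it in H2CKO. The cardiomyocyte-like class held 5 clusters, among them a shallow one led by Tcea3 and Myl1 (796 and 252 cells), one led by Ryr2, Ttn and Myl2 (673 and 1494) and one led by Stard10 (107 and 4). The defining markers were checked in each class: 11 of 12 endothelial markers in control and 12 of 12 in H2CKO, 12 of 12 mesenchymal in both, 10 and 9 of 11 epicardial and 10 of 10 cardiomyocyte markers in both reached 20 CPM in their class, the level used throughout (the UMIs of a gene scaled to the total of its cells). The labels were checked with 2 genes. GFP went from 16.02 to 1186 CPM in endothelial-like cells, from 17.6 to 1343 CPM in the Hapln1-led cluster and from 11.8 to 56.5 CPM in the Meox1-led cluster, while Hand2 went from 230 to 11.3, from 176 to 15.6 and from 185 to 90.1 CPM in the same cells. GFP was also higher in H2CKO in epicardial-like cells (9.002 to 73.6 CPM, with Hand2 at 124 and 111 CPM) and white blood cell-like cells (13.3 to 50.3 CPM), so the GFP difference of the Meox1-led cluster was no larger than that of epicardial-like cells. Cardiomyocyte-like cells had 11.4 and 10.54 CPM of GFP. With 1 library per genotype there is no replicate and no test, library and genotype cannot be told apart, and every interval given is a 95% interval for counting error alone. Cell quality differed with genotype too: a filter of 1500 genes and at most 5% mitochondrial UMIs kept 25905064 of 41637843 UMIs in control and 5037892 of 54373547 in H2CKO cardiomyocyte-like cells, and 5505034 of 6178826 and 5448283 of 9475710 in endothelial-like cells. Calls rerun with that filter are given in the closing section, and beyond them the part of cell quality in the results was not tested. In all, 57 barcodes occurred in both libraries, 28 of them among the cells kept in both.

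Sequence upstream of 4 of the 7 collagen genes that were lower in H2CKO endothelial-like cells is shown to give their genomic setting. RefSeq promoter windows of build GRCm38.p6 matched 35 of the 44 members, in 38 windows, and 4 motifs were searched on both strands in the 250 bases before each start. These were the TATA box TATAAA, the CCAAT box CCAAT, the GC box GGGCGG and the E-box CATCTG, a form that HAND-family factors can bind. The GC box occurred in 22 of 38 collagen windows and in 32.7% of all 32851 windows of the same length, the CCAAT box in 13 and in 33.8%, the TATA box in 5 and in 12.4%, and the E-box in 3 (Col3a1, Col4a5 and Col9a1) and in 14.4%. The collagen windows were richer in G and C, with a median of 59% against 52.4% over all windows. A match describes letters only and does not mark a bound site. Col1a2, also lower in those cells, had a window with a CCAAT box and a GC box that is not shown. Col1a1 and Col26a1, lower there as well, had no window. The 120 bases before the annotated starts, 5′ to 3′ on the strand of the gene with motif matches of either strand in capitals, lie at chr1:45311418-45311537 (plus strand) for Col3a1, chr2:27886305-27886424 (plus) for Col5a1, chr10:61979109-61979228 (minus) for Col13a1 and chr11:51289800-51289919 (plus) for Col23a1.
Col3a1: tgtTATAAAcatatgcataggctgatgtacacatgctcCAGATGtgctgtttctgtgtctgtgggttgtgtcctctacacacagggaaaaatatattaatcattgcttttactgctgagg
Col5a1: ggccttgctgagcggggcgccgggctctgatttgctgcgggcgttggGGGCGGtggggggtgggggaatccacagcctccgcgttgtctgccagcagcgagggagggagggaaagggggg
Col13a1: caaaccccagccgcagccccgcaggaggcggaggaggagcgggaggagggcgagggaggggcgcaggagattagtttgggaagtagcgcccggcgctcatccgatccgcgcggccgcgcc
Col23a1: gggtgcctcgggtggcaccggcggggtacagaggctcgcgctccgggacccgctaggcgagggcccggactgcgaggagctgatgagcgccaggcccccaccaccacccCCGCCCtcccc
The Col3a1 stretch held a TATA box and an E-box and no CpG, the Col5a1 and Col23a1 stretches each held a GC box, with 9 and 12 CpGs, and the Col13a1 stretch held none of the 4 motifs and 15 CpGs. Over the full 250 bases Col13a1 held a TATA box, as Col3a1 did.

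The paired genes Col4a1 and Col4a2 lie head to head on chromosome 8, and their annotated first exons overlap by 22 bases at chr8:11312805-11312826, shown here because the levels of both genes are compared below (plus strand, the strand of Col4a2, with a GC box in capitals).
Col4a1 and Col4a2 overlap: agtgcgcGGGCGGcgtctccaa

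Each cell class had its own collagen profile in the control library. A UMI is counted once per molecule near its 3′ end, so CPM was compared between genes without scaling to length. Summed over the members, collagen reached 3195 CPM in epicardial-like, 2972 CPM in endothelial-like and 2626 CPM in mesenchymal-like cells against 561 CPM in cardiomyocyte-like cells. Erythroid-like cells, which should make none and whose collagen UMIs serve as the level of free RNA, held 41.2 CPM. Fibrillar collagens took 66.1% of the collagen UMIs of epicardial-like cells and 60.7% of those of mesenchymal-like cells. In endothelial-like cells they took 37.1%, beside 28.9% for multiplexins, which was nearly all Col18a1, and 27.0% for the basement-membrane network. Cardiomyocyte-like cells gave 45.2% to the basement-membrane network and 38.3% to fibrillar collagens, and the FACIT class took 18.98% in mesenchymal-like cells and 1.48% in endothelial-like cells.

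The leading genes also differed by class. In control epicardial-like cells the 2 chains of type I collagen led, Col1a2 at 732 CPM and Col1a1 at 717 CPM. Mesenchymal-like cells were led by Col3a1 (713 CPM), followed by Col1a1 (333 CPM), Col18a1 (294 CPM) and the type IX chains Col9a3 (222 CPM) and Col9a1 (193 CPM). Endothelial-like cells were led by Col18a1 (858 CPM), Col3a1 (583 CPM) and Col4a1 (525 CPM) and had little Col1a1 (30.8 CPM). Cardiomyocyte-like cells were led by Col2a1 (117 CPM), Col4a1 (103 CPM) and Col4a5 (75.3 CPM). Col23a1 and Col26a1, a transmembrane and a secreted short collagen, were highest in endothelial-like cells (52.4 and 37.1 CPM), and Col12a1 in cardiomyocyte-like cells (32.1 CPM).

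**Figure D1:**
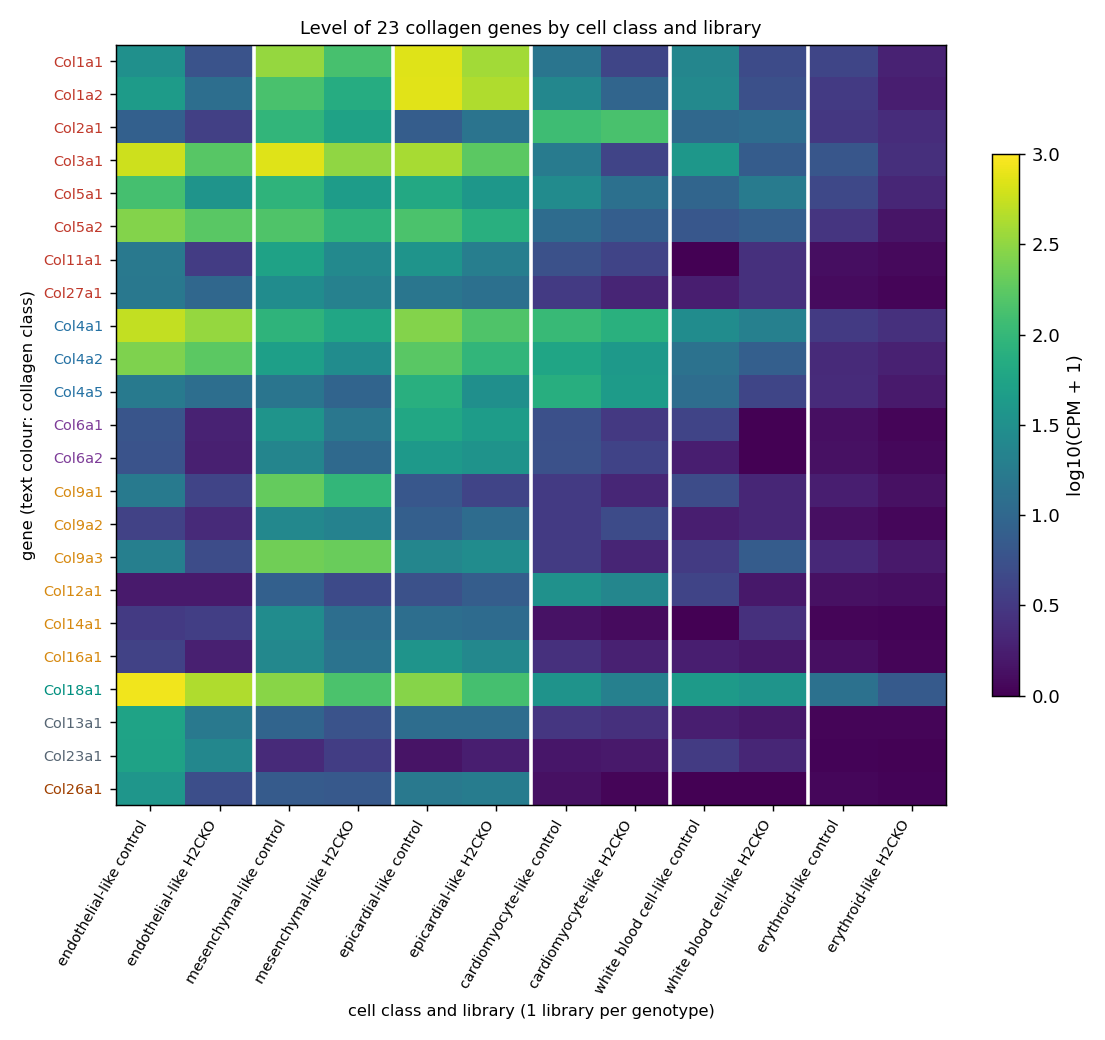
Level of the 23 collagen genes that reached 20 CPM and 20 UMIs in at least 1 class, as log10(CPM + 1) by colour, for 6 cell classes in each library (columns) and each gene (rows, text coloured by collagen class). Within each library the type I chains are brightest in the epicardial-like column, Col3a1 in the mesenchymal-like column and Col18a1 and Col4a1 in the endothelial-like column, and the erythroid-like columns are dark.

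The question of the design was how these profiles differed with endocardial loss of Hand2. Collagen UMIs made up a smaller share of RNA in H2CKO in every named class. The summed members were 2.09-fold lower in endothelial-like cells (2972 to 1424 CPM, interval 2.04 to 2.13), 1.90-fold in mesenchymal-like cells (2626 to 1384 CPM, 1.86 to 1.93), 1.80-fold in epicardial-like cells (3195 to 1779 CPM, 1.75 to 1.84) and 1.37-fold in cardiomyocyte-like cells (561 to 411 CPM, 1.34 to 1.39). The free-RNA level in erythroid-like cells was 2.25-fold lower as well (41.2 to 18.3 CPM), and its fibrillar part 2.92-fold (19.01 to 6.51 CPM). By collagen class, fibrillar collagens were 2.74-fold lower in endothelial-like cells (1103 to 402 CPM) and the basement-membrane network 1.54-fold (803 to 520 CPM), so that the fibrillar share went from 37.1% to 28.2% and the network share from 27.0% to 36.6%. In mesenchymal-like cells fibrillar collagens were 2.11-fold lower (1595 to 755 CPM) and FACIT collagens 1.43-fold (498 to 348 CPM). In epicardial-like cells the FACIT sum measured 86.2 CPM in control and 82.9 CPM in H2CKO, 1.04-fold lower with an interval (0.918 to 1.18) that holds 1. It was 1.00-fold in the Upk3b-led cluster (0.852 to 1.18) and 1.54-fold lower in the Tcf21-led cluster (165 to 107 CPM, 1.26 to 1.89). Over the epicardial-like class type IV chains were 1.95-fold lower (541 to 277 CPM).

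Single genes were compared as the log2 ratio of H2CKO over control, with 5 CPM added to each, and were called lower or higher beyond a 2-fold difference (a log2 ratio of 1 either way). A gene entered in a class if the library where it was higher had at least 20 CPM and 20 UMIs. Of 11 collagen genes that entered in endothelial-like cells, 7 were lower (Col1a1, Col1a2, Col3a1, Col5a1, Col13a1, Col23a1 and Col26a1) and 0 higher, where 7.77% of all 6554 genes that entered were lower and 0.87% higher. In the same endothelial-like cells the 12 mesenchymal markers summed to 1867 CPM in control and 370.1 CPM in H2CKO, with 9 and 6 at 20 CPM or more and 8 past 2-fold lower, and their part in these calls was not tested. In mesenchymal-like cells 5 of 18 were lower (Col1a1, Col3a1, Col6a1, Col14a1 and Col18a1) against 3.56% of 6526 genes, in epicardial-like cells 3 of 14 (Col3a1, Col4a5 and Col18a1) against 5.01% of 6331, and in cardiomyocyte-like cells 1 of 8 (Col1a2) against 0.619% of 5653. None of them was higher in these 3 classes, where 0.46%, 1.14% and 0.177% of all genes were. A gene that entered through its control level alone had to be lower, so these counts describe the genes that entered and not the whole family. White blood cell-like cells had 3 of 5 lower (Col1a1, Col1a2, Col3a1) against 7.7% of 5894 genes, with 1.37% of all genes higher, on at most 48 UMIs per gene and library.

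**Figure D2:**
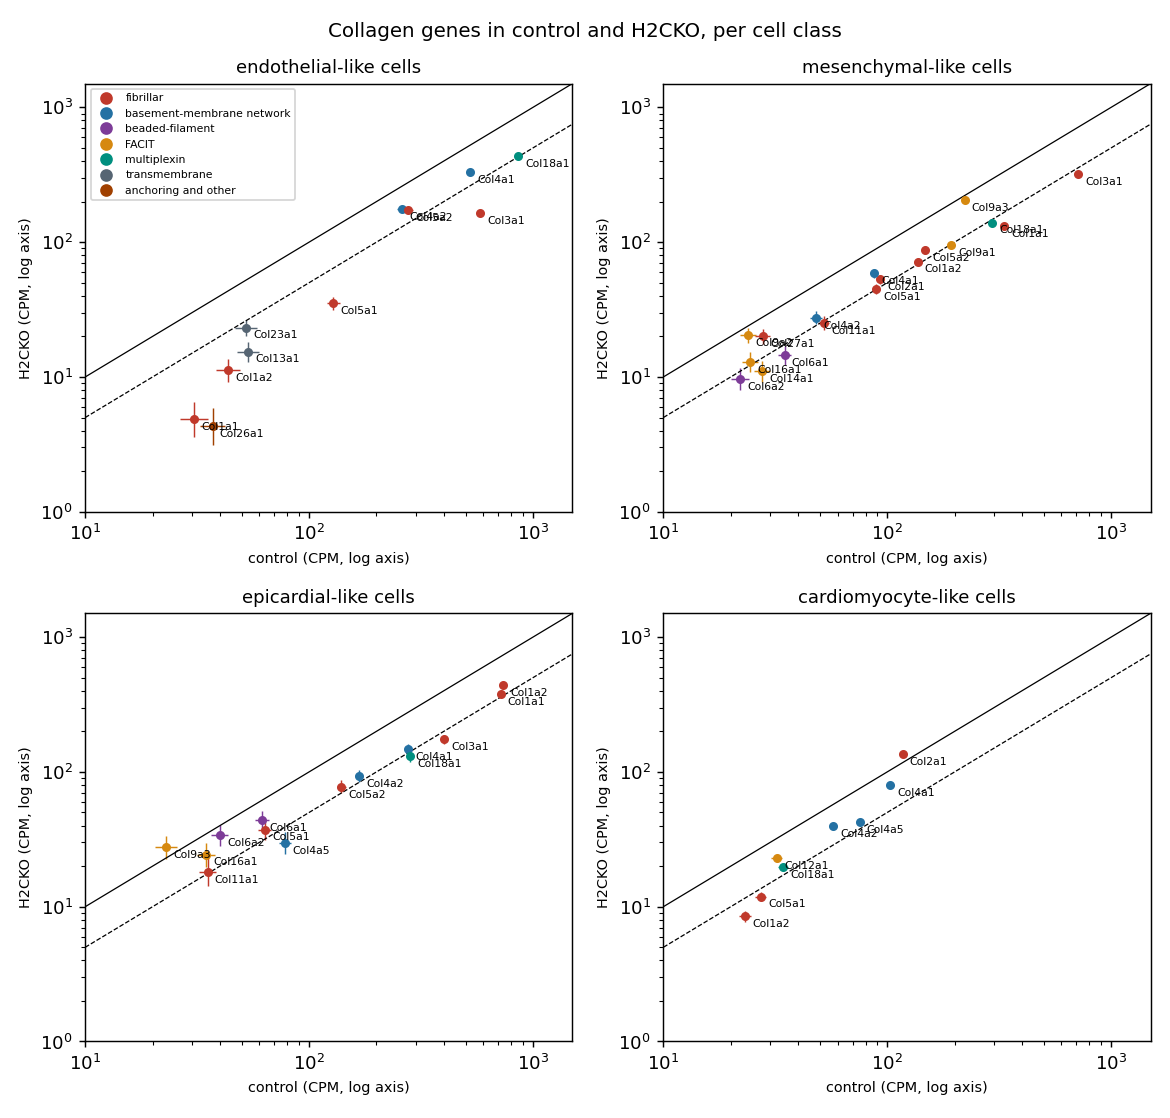
CPM in H2CKO (vertical, log axis) against CPM in control (horizontal, log axis) for the collagen genes that entered in each of 4 classes, coloured by collagen class, with bars for the 95% counting interval. The solid line marks equal levels and the dashed line a 2-fold lower level in H2CKO: nearly every point lies below the solid line, Col2a1 in cardiomyocyte-like cells and Col9a3 in epicardial-like cells lie above it (Col9a3 has a log2 ratio of −0.23 with doublet calls kept, in a larger epicardial-like class), and 7 of the 11 endothelial-like points lie beyond the dashed line.

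The whole table leaned the same way. The median log2 ratio over all genes that entered was −0.29 in endothelial-like, −0.24 in mesenchymal-like, −0.21 in epicardial-like and −0.16 in cardiomyocyte-like cells, and that of the collagen genes −1.52, −0.88, −0.80 and −0.58. Relative to the median gene, the lower calls went to 6, 1, 1 and 0, where 2.49%, 0.766%, 1.52% and 0.248% of all genes were lower: in endothelial-like cells all but Col23a1 held, in mesenchymal-like cells Col1a1 and in epicardial-like cells Col4a5. Haemoglobin UMIs moved with the genotype too, from 1.66% to 4.55% of UMIs in endothelial-like, 1.196% to 5.63% in mesenchymal-like, 1.18% to 4.45% in epicardial-like and 1.70% to 2.74% in cardiomyocyte-like cells, and with those UMIs left out of the totals the lower calls were 6, 2, 3 and 1 (6.9%, 2.49%, 4% and 0.577% of all genes). The log2 ratio also fell with the genomic span of a gene, with a rank correlation across genes of −0.49 to −0.55 in the 4 classes (a description, since genes share the libraries). Collagen genes are long: those that entered spanned a median of 129, 63.3, 82.9 and 117 kb, against 24.2 to 24.7 kb for all genes. With the trend on span taken out, 6, 2, 1 and 0 collagen genes were lower (in epicardial-like cells Col1a1, which was short of 2-fold before), beside 5.13%, 2.07%, 2.57% and 0.619% of all genes, and with that and the median shift both removed 5, 1, 0 and 0 were, beside 2.17%, 0.628%, 0.885% and 0.336%. The 5 were Col1a1, Col1a2, Col3a1, Col5a1 and Col26a1 in endothelial-like cells, and the 1 was Col1a1 in mesenchymal-like cells. With every cell thinned to 5000 UMIs, Col1a1 was under the entry level in endothelial-like cells and Col23a1 was short of 2-fold there (−0.68).

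**Figure D3:**
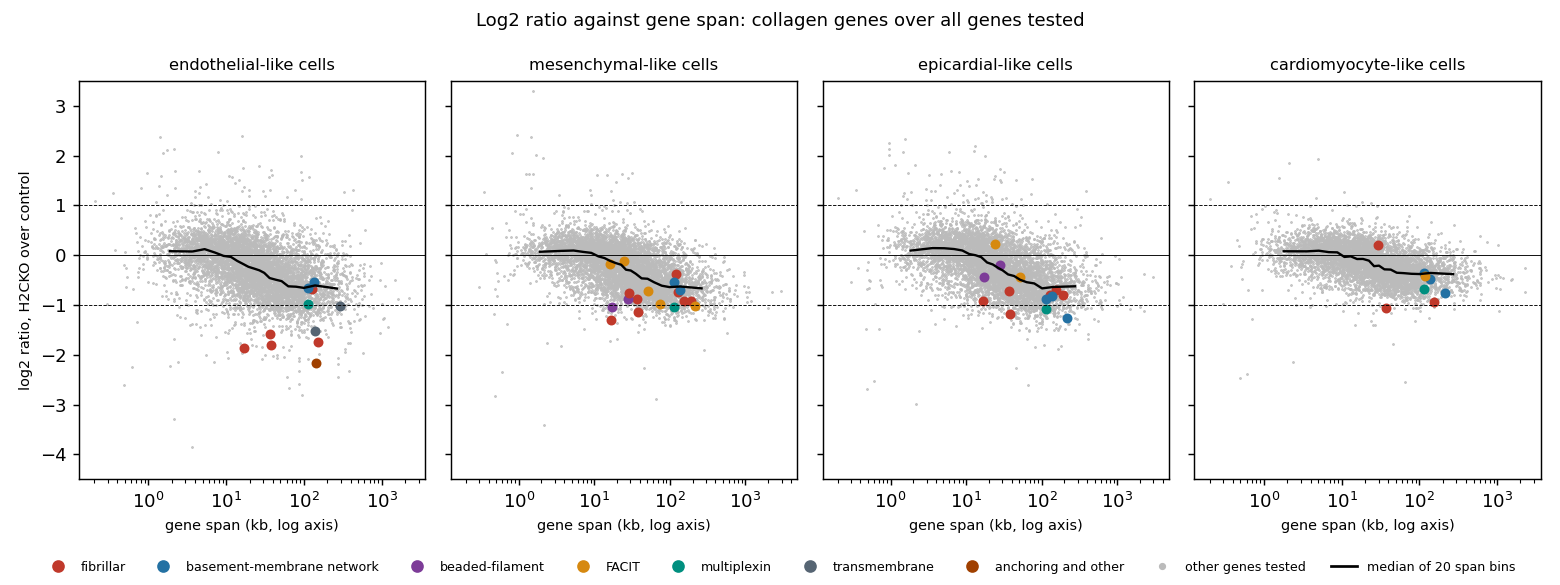
Log2 ratio of H2CKO over control (vertical) against the genomic span of the gene in kb (horizontal, log axis) in 4 classes, with collagen genes coloured by collagen class over all other genes that entered (grey), the median of 20 span bins (black line) and dashed lines at a 2-fold difference. The black line slopes down in each class, and in endothelial-like cells Col1a1, Col1a2, Col3a1, Col5a1 and Col26a1 lie well below it at short and long spans.

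Among the fibrillar collagens, the type I chains differed by genotype to an unequal degree between cells. Col1a1 (chr11:94936224-94953042) encodes the alpha 1 chain. It measured 269 CPM in control and 68.1 CPM in H2CKO in the Hapln1-led mesenchymal-like cluster, 3.96-fold lower (3.58 to 4.38). In the Meox1-led cluster it measured 410 and 219 CPM (1.87-fold, 1.75 to 2.01), and in epicardial-like cells 717 and 378 CPM (1.90-fold, 1.80 to 2.01), neither beyond 2-fold on the log2 scale used. Within the epicardial-like class, Col1a1 measured 751 and 463 CPM in the Upk3b-led cluster and went past 2-fold lower in the Tcf21-led cluster, from 537 to 200.2 CPM (2.68-fold, 2.34 to 3.09). After thinning every cell to 5000 UMIs, 65.6% of control and 23.5% of H2CKO cells of the Hapln1-led cluster had a Col1a1 UMI (79.0% and 38.5% before thinning), against 84.3% and 64.3% in the Meox1-led cluster (96.8% and 82.8%). Erythroid-like cells, with median depths of 18308 and 13220 UMIs, gave 2.06% and 0.501% after thinning.

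In control endothelial-like cells Col1a1 came almost wholly from the Klf2-led cluster (179 of 190 UMIs), and in H2CKO cells 20 of 46 UMIs did. In that cluster these gave 42.1 and 6.26 CPM (6.73-fold lower, 4.23 to 11.3). The Emcn-led cluster held the other 11 and 26 Col1a1 UMIs. Markers of mesenchymal cells moved with it: the 12 markers summed to 2546 CPM in control and 867 CPM in H2CKO in the Klf2-led cluster, with 10 and 8 of them at 20 CPM or more and 6 past 2-fold lower, and their part in the result was not tested. In the Emcn-led cluster the same markers summed to 373 and 117 CPM, with 5 and 2 of them at 20 CPM or more and 3 past 2-fold lower.

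Col1a2, the alpha 2 chain (chr6:4504814-4541544), went from 157 to 62.9 CPM in the Hapln1-led cluster (2.50-fold lower, 2.25 to 2.79). The Meox1-led cluster had 112 and 83.7 CPM (1.34-fold, 1.19 to 1.50). In endothelial-like cells Col1a2 fell from 43.4 to 11.2 CPM (3.88-fold, 3.09 to 4.90) and did so in both clusters, from 36.8 to 9.87 CPM in the Emcn-led and from 46.4 to 13.8 CPM in the Klf2-led cluster. It was the only collagen gene called lower over the cardiomyocyte-like class as a whole, at 23.2 and 8.46 CPM (2.74-fold, 2.45 to 3.07), where most of its UMIs (647 of 966 in control) came from a cluster led by Rspo3, Sema3c and Bmp4 and that cluster alone went from 63.5 to 30.0 CPM, a log2 ratio of −0.97. The class log2 ratio of −1.07 was short of 2-fold relative to the median gene (−0.90), with the span trend removed (−0.94) or both (−0.78), with thinning (−0.72) and with the strict cell filter (−0.46). Col1a2 was under the entry level with doublet calls kept, at Leiden resolution 0.5, with cells named by their own markers and with the unnamed clusters added. The cardiomyocyte markers summed to 50012 CPM in control and 43734 CPM in H2CKO in that class, with 1 of 10 past 2-fold lower. The 12 mesenchymal markers summed to 585 and 365 CPM there, with 2 at 20 CPM or more in both and 0 past 2-fold, and the part of either list was not tested. The highest level of Col1a2 was in a small cluster led by Eln, Rgs5 and Isl1 (41 and 75 cells, left unnamed), at 1061 and 652 CPM. Single cardiomyocyte-like clusters held further calls. In the Sema3c-led cluster Col1a1 (257 and 80 UMIs), Col3a1 (308 and 66), Col5a1 (583 and 213) and Col4a5 were past 2-fold lower, of 10180959 and 10629266 UMIs in all. So were Col1a1 and Col1a2 in a cluster led by Bmp2 and Tbx3, and Col3a1 in the shallow Tcea3-led cluster.

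Col3a1, the single chain of type III collagen (chr1:45311538-45349706), was lower in 3 of the 4 classes. Endothelial-like cells had 583 CPM in control and 163 CPM in H2CKO (3.57-fold, 3.36 to 3.79), mesenchymal-like cells 713 and 320 CPM (2.23-fold, 2.15 to 2.31) and epicardial-like cells 401 and 175 CPM (2.29-fold, 2.12 to 2.49). In cardiomyocyte-like cells it stayed under the entry level, at 16.5 and 3.09 CPM. The share of endothelial-like cells with a Col3a1 UMI at 5000 UMIs per cell was 83.0% (292 of 352) in control and 45.3% (314 of 693) in H2CKO, with 21 and 58 shallower cells left out, against 2.90% and 0.794% of erythroid-like cells. Before thinning the endothelial-like shares were 89.3% and 62.6%.

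Type V collagen sets the width of type I fibres, and its 2 chains parted in endothelial-like cells. Col5a1 (chr2:27886425-28039514) fell from 129 to 35.1 CPM (3.66-fold, 3.21 to 4.17), whereas Col5a2 (chr1:45374321-45503282) measured 277 and 172 CPM (1.61-fold, 1.50 to 1.72). The clusters differed for Col5a1: 25.4 and 4.30 CPM in the Emcn-led cluster (5.91-fold, 3.62 to 9.83) and 175 and 95.8 CPM in the Klf2-led cluster (1.83-fold, 1.60 to 2.10), while the class held 256 Klf2-led of 373 cells in control and 266 of 751 in H2CKO. In mesenchymal-like cells Col5a1 measured 89.1 and 44.9 CPM (log2 ratio −0.92) and Col5a2 148.2 and 87.4 CPM (−0.73), both short of 2-fold. Col5a2, a neighbour of Col3a1 on chromosome 1 in the opposite orientation, stayed short of 2-fold in the 3 classes where it entered. In cardiomyocyte-like cells Col5a1 entered (1134 and 646 UMIs), short of 2-fold, and Col5a2 did not (437 and 374 UMIs). Their UMI ratio there went from 2.59 (2.32 to 2.90) to 1.73 (1.52 to 1.97).

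Col2a1, the chain of type II collagen known from cartilage (chr15:97975602-98004695), was the exception among fibrillar genes. Cardiomyocyte-like cells had 117 CPM in control and 136 CPM in H2CKO, 1.16-fold higher (1.12 to 1.20), while mesenchymal-like cells had 92.8 and 52.9 CPM, 1.75-fold lower (1.60 to 1.92). Neither passed 2-fold in the class. Across cardiomyocyte clusters the level was 104 and 121 CPM in the cluster led by Ryr2, Ttn and Myl2, 189 and 202 CPM in the Sema3c-led cluster and 123 and 113 CPM in the cluster led by Bmp2 and Tbx3. A shallow cluster led by Tcea3 and Myl1, with a median of 1895 UMIs per cell, had 27.6 and 87.2 CPM, where haemoglobin UMIs went from 7.70% to 24.5%. The Hapln1-led mesenchymal-like cluster went from 49.9 to 21.0 CPM (2.38-fold lower, 1.97 to 2.88), and erythroid-like cells held 2.06 and 1.39 CPM.

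The minor fibrillar genes stayed short of 2-fold, with 5 CPM added, in the named classes where they entered. Col11a1, which with Col2a1 builds thin fibrils, measured 52.1 and 25.02 CPM in mesenchymal-like cells (log2 ratio −0.93) and 35.2 and 18.1 CPM in epicardial-like cells (−0.80). In mesenchymal-like cells its log2 ratio was −1.06 with no CPM added, and it was called lower with 1 CPM added. Col27a1 measured 27.8 and 20.1 CPM in mesenchymal-like cells (−0.39), relative to the median gene −0.14. In the small unnamed Eln-led cluster Col27a1 was past 2-fold lower, at 70.9 and 25.9 CPM on 22 and 12 UMIs. Its log2 ratio in mesenchymal-like cells was above 0 (0.25) once both the span trend and the median shift were removed.

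The basement-membrane network differed most in the Emcn-led endothelial-like cluster, where it was 2.45-fold lower (1462 to 595 CPM) and the fibrillar sum 2.79-fold. The network moved less than the fibrillar genes in endothelial-like and mesenchymal-like cells, and more in epicardial-like cells (1.95-fold against 1.83-fold) and cardiomyocyte-like cells (1.44-fold against 1.24-fold). Col4a1 (chr8:11198423-11312826) and Col4a2 (chr8:11312805-11449287) encode the chains of the ubiquitous type IV collagen. In that cluster Col4a1 fell from 974 to 382 CPM (2.55-fold, 2.40 to 2.71) and Col4a2 from 474 to 201 CPM (2.35-fold, 2.16 to 2.56). The Klf2-led cluster had 321 and 231 CPM of Col4a1 (1.39-fold, 1.27 to 1.52) and 162 and 127 CPM of Col4a2 (1.28-fold, 1.13 to 1.45). Over the endothelial-like class the differences were 1.58-fold and 1.47-fold, where the Emcn-led cluster, the richer in both genes, supplied 117 of 373 control and 485 of 751 H2CKO cells. With the span trend and the median shift both removed, the class log2 ratio of Col4a2 was 0.06. At 5000 UMIs per cell 89.2% of control and 79.4% of H2CKO cells of the Emcn-led cluster had a Col4a1 UMI, against 1.10% and 0.898% of erythroid-like cells.

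Elsewhere the 2 chains stayed short of 2-fold. Col4a1 measured 87.2 and 58.6 CPM in mesenchymal-like cells, 277 and 147 CPM in epicardial-like cells and 103 and 79.6 CPM in cardiomyocyte-like cells, and its log2 ratio was 0.10 in mesenchymal-like and 0.02 in cardiomyocyte-like cells with both corrections. Col4a5 (chrX:141475385-141689234), a chain known from Alport syndrome, was a gene of epicardial-like and cardiomyocyte-like cells. It fell from 77.8 to 29.8 CPM in epicardial-like cells (2.61-fold, 2.15 to 3.20) and did so in both epicardial-like clusters, but was short of 2-fold (−0.81) with doublet calls kept, a setting that clustered the cells anew and gave an epicardial-like class of 32480019 and 12007162 UMIs against 13330760 and 3861224. In cardiomyocyte-like cells it measured 75.3 and 42.7 CPM (1.76-fold, 1.67 to 1.86), and within them the Sema3c-led cluster went from 120 to 51.8 CPM (2.31-fold, 2.08 to 2.55). Its neighbour on the X chromosome, Col4a6, stayed under the entry level in every class (at most 17.7 CPM) and entered in the Sema3c-led cluster, with 33.5 and 17.6 CPM (log2 ratio −0.77), and in the Tbx3-led cluster, with 27.8 and 21.5 CPM. Markers of cardiomyocytes in epicardial-like cells summed to 3409 CPM in control and 5264 CPM in H2CKO, with 7 and 8 of 10 at 20 CPM or more and 5 past 2-fold higher. The epicardial markers themselves summed to 2955 CPM in control and 2022 CPM in H2CKO there, with 3 of 11 past 2-fold lower. The part of either in the epicardial-like results was not tested.

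Col18a1 (chr10:77052178-77166548), the endostatin precursor, was lower by a like amount in most cells. Endothelial-like cells had 858 and 434 CPM (1.97-fold, 1.90 to 2.06), with 656 and 374 CPM in the Emcn-led and 949 and 554 CPM in the Klf2-led cluster. Mesenchymal-like cells went from 294 to 140 CPM (2.10-fold, 1.99 to 2.22) and epicardial-like cells from 282 to 131 CPM (2.16-fold, 1.97 to 2.38). These values straddled the 2-fold line, with log2 ratios of −0.97, −1.05 and −1.08, and relative to the median gene they were −0.69, −0.80 and −0.88. With doublet calls kept, in a larger epicardial-like class, that value was −0.84. Erythroid-like cells held 12.2 and 6.13 CPM of Col18a1, the highest free-RNA level of any collagen gene.

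Among FACIT collagens the type IX chains differed from one another. The 3 chains Col9a1, Col9a2 and Col9a3 form 1 molecule, and among the named classes all were highest in mesenchymal-like cells. Col9a3 (chr2:180597790-180622189) measured 245 CPM in control and 248 CPM in H2CKO in the Hapln1-led cluster, with a ratio interval of 0.950 to 1.07. Col9a2 (chr4:121039385-121055322) measured 29.2 and 27.0 CPM there (1.08-fold lower, 0.901 to 1.304). Col9a1 (chr1:24177610-24252684) fell from 197 to 89.1 CPM in the same cluster (2.21-fold, 2.02 to 2.42). Over the mesenchymal-like class Col9a1 lay just short of the 2-fold line (193 and 95.5 CPM, log2 ratio −0.98) with 5 CPM added, and past it with 1 CPM added. The log2 ratios of Col9a2 and Col9a3 in that class were −0.18 and −0.11, and relative to the median gene they were above 0, at 0.06 and 0.13.

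The other FACIT genes were low. Col14a1 (chr15:55307750-55520803), a fibril-surface collagen, fell from 27.6 to 11.01 CPM in mesenchymal-like cells (2.50-fold, 2.06 to 3.06), most of it in the Meox1-led cluster (50.5 to 20.3 CPM, 2.49-fold, 2.001 to 3.12). Col14a1 was no longer called in the class with thinning, centring, the span trend taken out, haemoglobin left out or cells named by their own markers. Col16a1 measured 24.4 and 12.9 CPM in mesenchymal-like and 34.7 and 24.3 CPM in epicardial-like cells, both short of 2-fold, the second at a log2 ratio of 0.05 once span trend and median shift were removed. Col12a1 was found mainly in cardiomyocyte-like cells (32.1 and 22.8 CPM), and there in the Sema3c-led cluster (77.4 and 42.5 CPM, 1.82-fold lower, 1.62 to 2.05).

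Type VI collagen, which links cells to the surrounding matrix, was highest in epicardial-like cells. Col6a1 (chr10:76708792-76726168) fell from 34.8 to 14.4 CPM in mesenchymal-like cells (2.41-fold, 2.03 to 2.87), with 38.6 and 11.498 CPM in the Hapln1-led cluster and 30.2 and 18.4 CPM in the Meox1-led cluster. In epicardial-like cells it measured 61.7 and 44.0 CPM (1.40-fold, 1.19 to 1.66), with 46.4 and 32.2 CPM in the Upk3b-led cluster and 143 and 68.9 CPM, past 2-fold lower, in the Tcf21-led cluster. Its partner Col6a2, on the same chromosome, measured 22.0 and 9.69 CPM in mesenchymal-like cells (log2 ratio −0.88) and 39.9 and 33.9 CPM in epicardial-like cells, where the interval of the ratio (0.970 to 1.44) holds 1 and centring on the median gene gave a log2 ratio of 0.00. The third chain, Col6a3, stayed under the entry level, with at most 8.82 CPM.

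The transmembrane collagens Col13a1 and Col23a1 and the secreted Col26a1 were highest in endothelial-like cells among the classes. In the Emcn-led cluster Col26a1 and Col13a1 had the largest fold differences of the 10 collagen genes that entered. Col26a1 (chr5:136741759-136883209), which encodes a short secreted collagen, went from 96.9 to 3.82 CPM there (187 and 24 UMIs, 25.4-fold lower, 16.5 to 40.6). Col13a1 (chr10:61838236-61979108), a membrane collagen of cell adhesion sites, went from 65.8 to 5.41 CPM (12.2-fold, 8.27 to 18.3). Col23a1 (chr11:51289920-51583918), another membrane collagen, went from 110 to 26.6 CPM (4.15-fold, 3.37 to 5.11). In the Klf2-led cluster the 3 genes were short of 2-fold: Col13a1 measured 47.8 and 35.1 CPM, Col23a1 26.1 and 16.6 CPM, and Col26a1, under the entry level, 9.88 and 5.32 CPM. Col26a1 was also found in epicardial-like cells, under the entry level, at 15.3 and 17.1 CPM, an interval of the ratio (0.833 to 1.48) that holds 1.

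The shares of cells followed the same order. At 5000 UMIs per cell, 31.5% (35 of 111) of control and 1.31% (6 of 457) of H2CKO cells of the Emcn-led cluster had a Col26a1 UMI (59.8% and 4.74% before thinning). For Col13a1 the shares were 20.7% and 2.41% (46.2% and 5.15%), and for Col23a1 29.7% and 12.7% (59.0% and 26.2%). Erythroid-like cells gave at most 0.114% for any of the 3. Over the endothelial-like class the 3 genes were lower by 8.57-fold (Col26a1), 3.47-fold (Col13a1) and 2.26-fold (Col23a1). Only Col26a1 and Col13a1 were also past 2-fold relative to the median gene, and with the span trend and the median shift both removed only Col26a1 was.

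Set against each other within the H2CKO and control pair, the 2 endothelial-like clusters differed for most collagens they share. In the Emcn-led cluster 8 of 10 collagen genes that entered were lower, against 8.64% of 6328 genes (1.49% higher), and in the Klf2-led cluster 4 of 11 (Col1a1, Col1a2, Col3a1 and Col9a3), against 3.52% of 6618 (0.62% higher), and no collagen gene was higher in either. The difference between the clusters' log2 CPM ratios had an interval below 0, a larger fall in the Emcn-led cluster, for 6 of the 9 genes that entered in both. These were Col13a1 (−3.16, interval −3.80 to −2.52), Col5a1 (−1.69, −2.39 to −0.99), Col23a1 (−1.40, −1.95 to −0.84), Col4a1 (−0.88), Col4a2 (−0.88) and Col3a1 (−0.75). For Col1a2, Col5a2 and Col18a1 the interval held 0. Col18a1 had the narrowest of these, −0.16 to 0.09.

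The 2 mesenchymal-like clusters differed as well. In the Hapln1-led cluster, the one rich in GFP in H2CKO, 8 of 17 collagen genes were lower (Col1a1, Col1a2, Col2a1, Col3a1, Col6a1, Col6a2, Col9a1 and Col18a1), against 5.5% of 6471 genes (0.464% higher). In the Meox1-led cluster 2 of 16 were (Col14a1 and Col18a1), against 3.26% of 6480 (0.525% higher). No collagen gene was higher in either. Of 15 genes that entered in both, 6 had an interval below 0: Col1a1 (−1.08, −1.25 to −0.91), Col6a1 (−1.04, −1.52 to −0.55), Col1a2 (−0.90, −1.13 to −0.68), Col2a1 (−0.66), Col3a1 (−0.58) and Col9a1 (−0.29). Col9a3 was the 1 gene above 0 (0.42, 0.27 to 0.57). The 8 whose intervals held 0 included both type IV chains, both type V chains and Col18a1. Mesenchymal markers themselves summed to 7320 CPM in control and 3639 CPM in H2CKO over the class, with 12 of 12 at 20 CPM or more in both libraries and 3 of 12 past 2-fold lower, and whether the collagen differences exceed that was not tested.

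**Figure D4:**
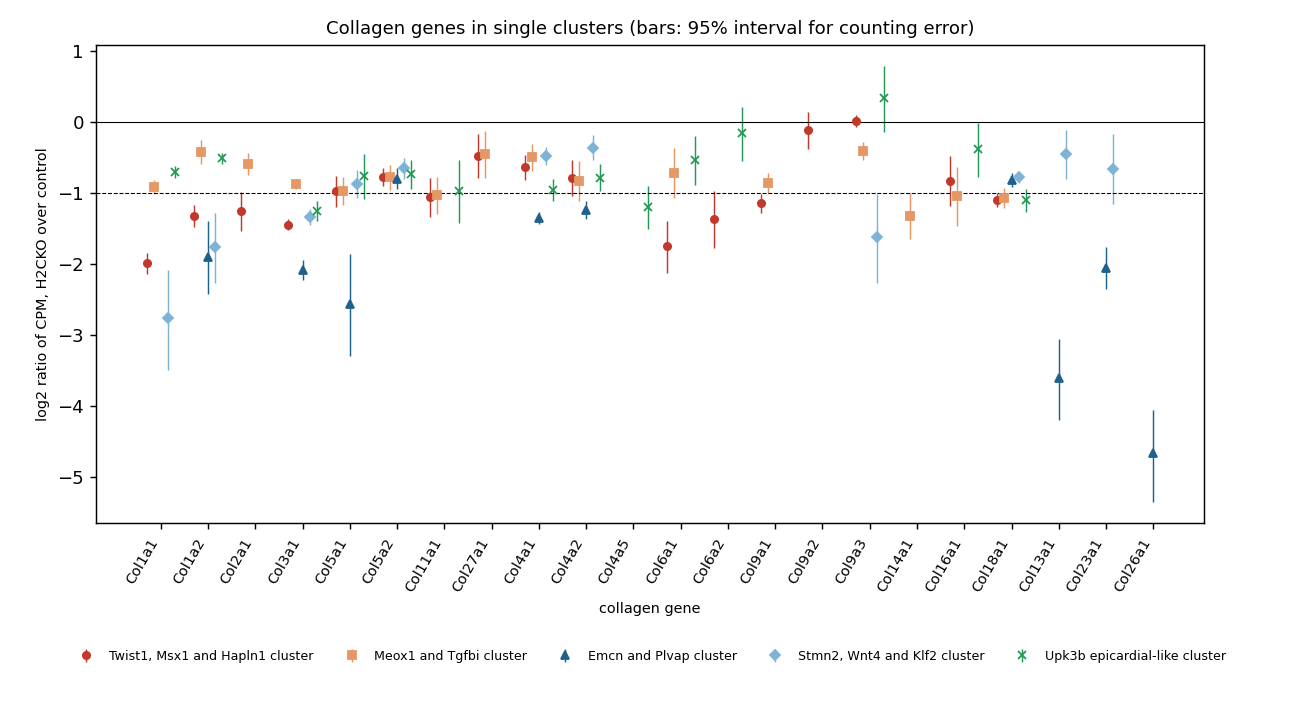
Log2 ratio of CPM, H2CKO over control (vertical, no CPM added), for the collagen genes (horizontal) that entered in each of 5 clusters, with 95% counting intervals and a dashed line at 2-fold lower. The Emcn-led cluster (dark triangles) lies far below the other clusters for Col13a1 and Col23a1, the Hapln1-led cluster (dark circles) lies below the Meox1-led cluster (light squares) for Col1a1, Col1a2 and Col6a1, and the Hapln1-led cluster lies at 0 for Col9a3.

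Chains that share a molecule were compared as ratios of UMIs, which do not depend on the library total. Col4a1 over Col4a2 ranged from 1.44 to 2.06 over 12 control clusters and from 1.42 to 2.32 over 11 H2CKO clusters with enough UMIs, with medians of 1.87 and 1.95. In the Emcn-led cluster, where both genes fell, it was 2.06 (1.90 to 2.23) in control and 1.90 (1.77 to 2.03) in H2CKO. In cardiomyocyte-like cells it was 1.80 (1.71 to 1.89) in control and 2.01 (1.91 to 2.12) in H2CKO, and in their Sema3c-led cluster 1.44 (1.304 to 1.60) and 1.81 (1.60 to 2.05), intervals that do not overlap. Col1a1 over Col1a2 ranged far wider, from 0.356 to 3.66 over 11 control clusters and from 0.251 to 2.62 over 7 H2CKO clusters. It was highest in the Meox1-led cluster (3.66 in control, 2.62 in H2CKO), near 1 in epicardial-like cells (0.979 and 0.855), and 0.397 and 0.251 in the Sema3c-led cluster.

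In H2CKO the type I ratio was lower in the mesenchymal-like clusters and also in endothelial-like (0.709 to 0.434), cardiomyocyte-like (0.581 to 0.387) and epicardial-like cells. Erythroid-like cells had 1.42 and 1.21, with intervals that overlap, and the unnamed Eln-led cluster had 0.356 and 0.358. In the Hapln1-led cluster it went from 1.71 (1.62 to 1.81) to 1.08 (0.945 to 1.24), since Col1a1 fell more than Col1a2. Col5a1 over Col5a2 in endothelial-like cells went from 0.464 (0.426 to 0.505) to 0.204 (0.181 to 0.230), with the share of the clusters changing as given above. Within the Klf2-led cluster it was 0.658 (0.599 to 0.723) and 0.563 (0.487 to 0.648), intervals that overlap, and within the Emcn-led cluster 0.0846 (0.0619 to 0.113) and 0.0249 (0.0163 to 0.0364). Col9a1 over Col9a3 in the Hapln1-led cluster went from 0.802 (0.760 to 0.846) to 0.360 (0.326 to 0.396). Col6a1 over Col6a2 in mesenchymal-like cells was 1.58 (1.41 to 1.77) and 1.49 (1.16 to 1.92), intervals that overlap.

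**Figure D5:**
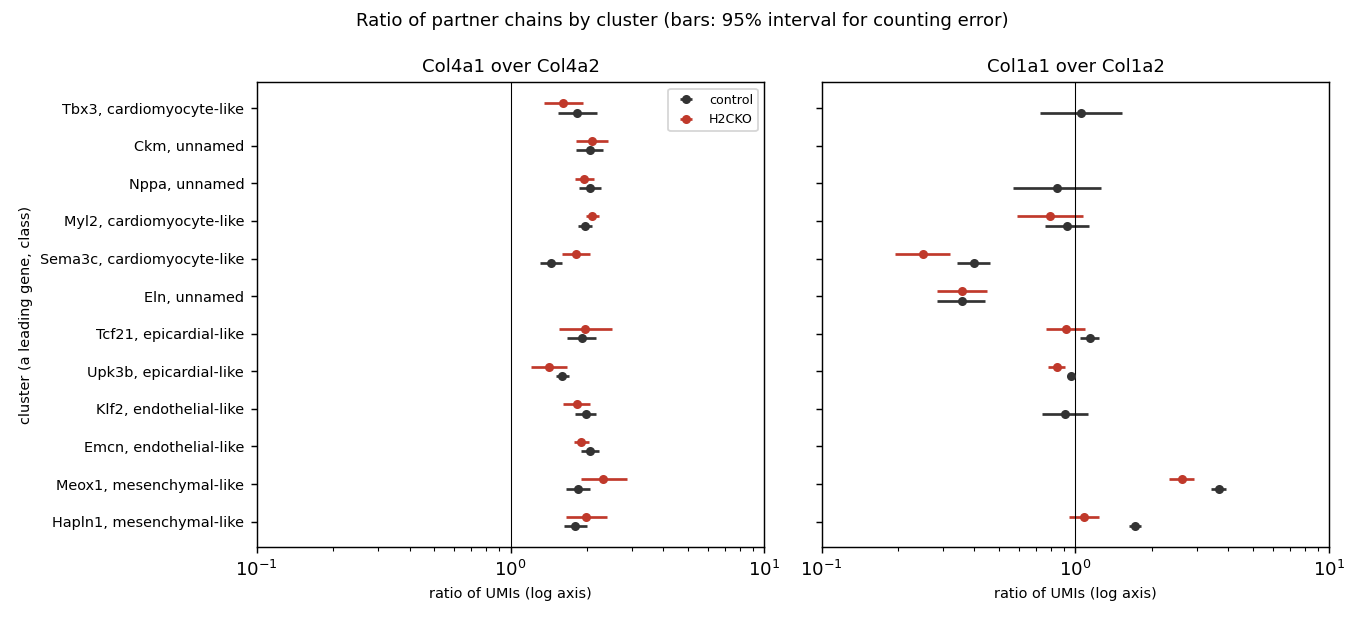
Ratio of UMIs of partner chains (horizontal, log axis) in each cluster (rows, named by a leading gene and class) for control (black) and H2CKO (red), with 95% counting intervals. Col4a1 over Col4a2 stays between 1.42 and 2.32 in the clusters drawn, while Col1a1 over Col1a2 runs from 0.251 in the Sema3c-led cluster to 3.66 in the Meox1-led cluster.

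The pathway that makes, exports, links and senses collagen was followed through a list of 54 genes, all found in the files. In endothelial-like cells 10 of 33 genes that entered were lower (7.77% of all genes), in mesenchymal-like cells 5 of 37 (3.56%), in epicardial-like cells 1 of 37 (5.01%, so no more than among all genes) and in cardiomyocyte-like cells 1 of 22 (0.619%), with 0 higher in each. The list medians were −0.75, −0.40, −0.33 and −0.34 on the log2 scale. Within the endothelial-like class the clusters differed. In the Emcn-led cluster 2 of 27 were lower (Sec23a and Mmp14, beside 8.64% of all genes) and 1 was higher (Timp3, beside 1.49%). In the Klf2-led cluster 6 of 33 were lower (beside 3.52%) and 0 higher. Plod2, a lysyl hydroxylase that prepares collagen for cross-links, was the 1 gene lower in all 4 classes, from 40.3 to 14.4, 192 to 81.0, 145 to 58.0 and 76.3 to 33.6 CPM. Within the endothelial-like class Plod2 was called lower in neither cluster alone. Loxl2, a cross-linking enzyme, fell in endothelial-like (170 to 56.4 CPM) and mesenchymal-like cells (509 to 244 CPM). Itgb1, the shared beta chain of collagen-binding integrins, fell there too (675 to 299 and 834 to 397 CPM). Itgb1 was not particular to these classes. It was also called lower in white blood cell-like (284 to 122 CPM) and erythroid-like cells (23.96 to 8.696 CPM). In epicardial-like (557 to 292 CPM) and cardiomyocyte-like cells (402 to 219 CPM) Itgb1 was lower but short of 2-fold.

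The remaining lower genes belonged to several steps. In endothelial-like cells they were Itga1 (153 to 68.2 CPM) and Itga2 (54.7 to 22.7 CPM), alpha chains of collagen-binding integrins, P4hb (380 to 183 CPM), a subunit of prolyl 4-hydroxylase, Sec23a (75.7 to 29.3 CPM), a coat protein of export vesicles, Creb3l2 (189 to 77.0 CPM), a transcription factor of the secretory pathway, Mmp14 (212 to 101 CPM), a membrane-bound collagenase, and Dcn (22.98 to 3.27 CPM), a fibril-binding proteoglycan. Of these, P4hb and Creb3l2 were called lower in neither endothelial-like cluster alone. Mesenchymal-like cells added Ddr2, a collagen receptor (22.7 to 7.84 CPM), and P4ha1, a catalytic subunit of prolyl 4-hydroxylase (122 to 58.1 CPM). Relative to the median gene, 2 genes of the list were past 2-fold lower (2.49% of all genes) and 1 higher in endothelial-like cells, 0 lower in mesenchymal-like cells (0.766%), 1 in epicardial-like cells (1.52%) and 0 in cardiomyocyte-like cells (0.248%). Of the 5 most abundant genes of the list in control mesenchymal-like cells, Itgb1 and Loxl2 were among the lower genes above and the other 3 were short of 2-fold: Sparc, a collagen-binding matricellular protein, measured 1491 and 1440 CPM, Serpinh1, the collagen chaperone HSP47, 797 and 811 CPM, and Ppib, a prolyl isomerase, 963 and 944 CPM.

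Of the 44 members, 21 entered in none of the classes. The highest levels among them were 17.7 CPM for Col4a6 in cardiomyocyte-like cells, 15.98 and 13.7 CPM for the short-chain genes Col8a2 and Col8a1 in epicardial-like cells, 8.82 CPM for Col6a3 in mesenchymal-like cells, 7.61 CPM for Col25a1 in endothelial-like cells and 7.50 CPM for Col6a6 in epicardial-like cells, all in control. Col4a4 (2.74 CPM), Col15a1 (2.59 CPM), Col24a1 (2.27 CPM), Col22a1 (1.63 CPM), Col6a5 (1.28 CPM), Col7a1 (1.20 CPM) and Col11a2 (1.07 CPM) came next. Col4a3, Col5a3, Col6a4, Col10a1, Col17a1, Col19a1, Col20a1 and Col28a1 stayed under 1 CPM in every class, and at so few UMIs these were not compared between genotypes.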

How the data were processed

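Embryonic hearts of 2 genotypes were profiled with the 10x Genomics 3′ chemistry, per the labels' protocols, with about 3 hours on ice before dissociation. The authors deposited a matrix of UMI counts per gene and barcode for each library (14114 and 13885 barcodes, 195825720 and 201477256 UMIs) and 2-dimensional embedding coordinates, a score per cell. Cell Ranger 5.0.1, Seurat 4 and GRCm38.p6 are named without roles per the submitters' processing notes, and cell calling is not given in the sources used here. Barcodes with fewer than 500 genes or over 10% of UMIs from mitochondria were dropped. Doublets were removed by Scrublet in scanpy 1.11.5: 10.6% of control cells by its automatic threshold, and the 5% highest scores in H2CKO, where that threshold marked 0 cells. Clustering used 2000 variable genes without collagen and pathway genes, 30 components, 15 neighbours per library and Leiden resolution 1, giving 20 clusters, 4 of them unnamed. A cluster was named from 12 marker lists. UMIs were summed per class and library. Intervals are exact Poisson or exact conditional intervals (95%). Gene spans come from GENCODE vM21. The collagen genes, marker lists, pathway list and alternatives were chosen with earlier results of these data known, and every collagen gene reaching 20 CPM and 20 UMIs in a class is named. Ratios and intervals were checked on simulated counts. No test was run, since each group has 1 library.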

Additional observations from a re-analysis of the deposited data

Results flagged for a closer look

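Col2a1 stood out because its log2 ratio of H2CKO over control had opposite signs in different cell classes, 0.20 in cardiomyocyte-like cells (117 and 136 CPM) and −0.76 in mesenchymal-like cells (92.8 and 52.9 CPM). The difference between the classes was not tested, as each genotype has 1 library. The cardiomyocyte-like value stayed above 0 under every alternative run for it, and neither value passed 2-fold.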

How the results depend on the processing

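Of 704 log2 ratios of single genes recomputed under another setting, 411 stayed within their counting interval and 293 moved, and none past 2-fold as reported changed sign. Values short of 2-fold did change sign in 12 cases, such as Col9a3 in epicardial-like cells (−0.23 with doublet calls kept) and Col4a2 in endothelial-like cells (0.06 with span trend and median shift removed). The count of lower collagen genes in endothelial-like cells, 7 as reported, was 2 with a minimum of 100 CPM (9.23% of all genes) and 4 in the Stmn2-led cluster alone (3.52%). It was 9 of 12 with the strict cell filter (9.6%), 8 of 12 with cells named by their own markers (8.65%), and 8 of 12 with thinning (9.74%), where Col1a1 and Col23a1 were no longer called. In mesenchymal-like cells the 5 (3.56% of all genes) became 8 with 1 CPM added (6.82%), 4 with thinning (3.59%, without Col14a1), 3 with the 100 CPM minimum (4.63%), 3 with each cell named by its own markers (3.17%), 3 with cells of the deposited embedding (2.38%), 2 with haemoglobin left out (2.49%), 2 with the span trend taken out (2.07%), 1 with centring on the median gene (0.766%) and 1 with both (0.628%). In epicardial-like cells the 3 became 5 with doublet calls kept (Col1a1, Col1a2, Col3a1, Col9a1 and Col11a1, so that Col4a5 and Col18a1 were lost, 2.85% of all genes against 5.01%, in a class that re-clustering enlarged to 32480019 and 12007162 UMIs from 13330760 and 3861224), 1 with centring (1.52%), 1 with the span trend taken out (2.57%) and 0 with both (0.885%), and naming cells by their own markers gave 1 higher gene. In cardiomyocyte-like cells the 1 (Col1a2) became 2 with 1 CPM added, beside 0.619% and 1.1% of all genes. It became 0 with the 100 CPM minimum, centring, thinning to 5000 UMIs, the strict cell filter, Leiden resolution 0.5, naming by own markers, the span trend taken out with and without centring, and the unnamed clusters with cardiomyocyte markers added, beside 0.248% to 0.786% of all genes, or 4.67% with the strict filter. With doublet calls kept the 1 was Col3a1, and Col1a2 was under the entry level. The strict filter (1500 genes, 5% mitochondrial) kept 25905064 of 41637843 control but 5037892 of 54373547 H2CKO cardiomyocyte-like UMIs, and 5505034 of 6178826 and 5448283 of 9475710 endothelial-like UMIs, so cell quality by these measures differed between the libraries. Centring left 2 lower (2.49% of all genes) and 1 higher pathway gene in endothelial-like cells, 0 lower in mesenchymal-like (0.766%), 1 in epicardial-like (1.52%) and 0 in cardiomyocyte-like cells (0.248%). As a mean over cells, summed collagen was 2893 CPM in control endothelial-like, 2651 CPM and 1406 CPM in control and H2CKO mesenchymal-like, 1852 CPM in H2CKO epicardial-like and 525 CPM in control cardiomyocyte-like cells. With the erythroid-like level subtracted it was 2584 CPM in control mesenchymal-like, 3153 CPM in control epicardial-like, and 520.3 CPM and 392.4 CPM in control and H2CKO cardiomyocyte-like cells. Removing the span trend and the median shift together, leaving out haemoglobin, single endothelial-like clusters, adding the unnamed clusters and leaving out shared barcodes were chosen after seeing the data. Apart from what a setting changes by construction, the cause was not tested. No paired analysis was possible because each genotype has 1 library, and no replicate could be left out.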
